A study of Mus musculus with 4 samples.

Results

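The cyclin-dependent kinase inhibitors of the Cip/Kip and INK4 families were followed through a CLIP-chip experiment on mouse gut, in which RNA bound to a protein is recovered with an antibody and read on a microarray. The probe sets were chosen by gene symbol, each kept apart, for Cdkn1a, Cdkn1b, Cdkn1c, Cdkn2a, Cdkn2b, Cdkn2c and Cdkn2d. They numbered 7 of the 34760 probe sets on the array and covered 6 of the 7 genes, out of 19937 genes with a probe set of their own, with 2 for Cdkn1b and 1 for each other gene. Cdkn1a had no probe set of its own, because the only one that names it also names 4930567H12Rik. The family was singled out because Cdkn1b stood high in the Msi1 precipitation, so the Cdkn1b values below are a description.

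Adult C57BL/6 mice gave the gut epithelium for all 4 arrays, each of which carried the combined RNA of 2 experiments. The input array held RNA with no precipitation. The other 3 held RNA precipitated from intestine crosslinked with ultraviolet light, with nonspecific IgG as the control, with an antibody to Musashi1 (labelled Msi1, Millipore AB5977), or with an antibody labelled hnRNP, whose exact target the sources used here do not name. They also name no genotype, treatment or number of animals. Each group was 1 array, so no spread between replicates exists, no difference was tested, and the order of any values lacks a replicate check. The number of arrays limits the precision.

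Progress from G1 into S phase is driven by cyclins bound to cyclin-dependent kinases, which phosphorylate the retinoblastoma protein and release E2F transcription factors. INK4 proteins bind Cdk4 and Cdk6 and keep cyclin D away, while Cip/Kip proteins bind assembled cyclin-kinase complexes, above all those of Cdk2. In the gut, dividing crypt cells leave the cell cycle as they differentiate, and inhibitors of both families take part in that exit. Musashi1 is an RNA-binding protein of gut and neural progenitors that regulates translation of its target mRNAs, and Cdkn1a mRNA is among its published targets.

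Values are log2 signals, and a difference of 1 is 2-fold. A detection floor was set on each array at the 95th percentile of the 1204 probe sets for olfactory or vomeronasal receptors, sensory genes foreign to the gut. It stood at 4.09 on input, 5.26 on IgG, 4.74 on Msi1 and 5.17 on hnRNP. Of the 21640 probe sets with 1 gene symbol, 58.9% exceeded the floor on input, 27.5% on IgG, 47.4% on Msi1 and 32.2% on hnRNP. All 12 gut epithelium markers sought were above the floor on input. Of the markers of other cells, 3 of 5 leukocyte probe sets and 3 of 6 of stroma and muscle were above it there, and 0 of 3 of endothelium and 0 of 3 of neurons and glia. The defining B cell marker Cd79a read 2.90 on input, below the floor, and the macrophage marker Adgre1 3.13, while Lyz2, of macrophages and Paneth cells, read 8.49, the T cell marker Cd3e 6.36 and the pan-leukocyte gene Ptprc 4.86, all above it. In such bulk RNA, fewer cells that hold a transcript and less of it per cell cannot be told apart.

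Cdkn1b encodes p27, a Cip/Kip inhibitor that holds cyclin E and Cdk2 in check in resting and differentiating cells. Its probe set 10542317 read 4.37 on input, 5.38 on IgG, 10.90 on Msi1 and 5.44 on hnRNP. Only the Msi1 value lay far from background, and the other 3 were within 0.28 of their floors. The Msi1 value exceeded IgG by 5.52 (45.8-fold), input by 6.53 (92.3-fold) and hnRNP by 5.45 (43.8-fold). Ranked by difference, it stood 12th of 11156 probe sets against IgG, 1st of 13825 against input and 20th of 11489 against hnRNP, where the probe sets ranked were those above the floor on at least 1 array of the pair. Its smallest excess over any other array was the highest of the 14696 probe sets above the floor on at least 1 array, of which 1.24% were at least 2-fold higher on Msi1 than on each other array.

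The other Cdkn1b probe set, 10542310, gave a different profile. It read 6.89 on input, 5.65 on IgG, 6.24 on Msi1 and 4.76 on hnRNP. Input was the highest value and hnRNP the lowest, below its floor. Msi1 exceeded IgG by 0.59, less than 2-fold, and exceeded hnRNP by 1.49, or at least 2.11-fold with the hnRNP value raised to its floor. With both values raised to a stricter floor, the 99th percentile of the receptors, the difference from hnRNP was 0.49. Against input, Msi1 was lower by 0.64 log2 units as deposited (−0.64), and the sign turned with quantile normalization (0.39) and loess centring (0.63). It ranked 3320th of 11156 against IgG.

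The 2 Cdkn1b probe sets are annotated to the same RefSeq transcript, and the sources used here do not place them within it. Their differences between Msi1 and IgG lay 4.92 log2 units apart. Among 480 genes with more than 1 probe set above the floor on Msi1 or IgG, the median gap between a gene's highest and lowest difference was 1.22, and the 90th percentile was 3.30. Cdkn1b had the 15th widest gap of the 480, and the 5th widest of the 365 genes with exactly 2 such probe sets. More probe sets can only widen the gap of a gene. Among the 365, which match Cdkn1b in number, the median gap was 1.01 and the 90th percentile 2.77, and 50.1% had a gap of at least 1. Disagreement between probe sets was thus common on these arrays, with a gap of at least 1 in 58.3% of the 480 genes, and Cdkn1b lay in the upper tail. Its gap includes the high Msi1 value for which the family was singled out, so this place is a description. The mean of the 2 probe sets was above IgG by 3.06 and above input by 2.94.

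**Figure D1:**
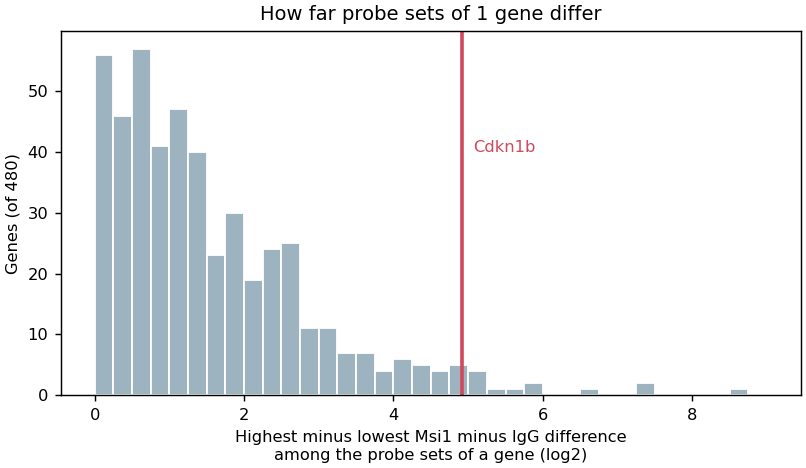
Histogram of the gap between the highest and lowest Msi1 minus IgG difference (log2) among the probe sets of each of 480 genes with more than 1 probe set above the floor; the y axis counts genes and the red line marks Cdkn1b. The Cdkn1b gap of 4.92 lies beyond the 90th percentile of 3.30, and includes the high Msi1 value for which the family was singled out.

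Cdkn1c encodes p57, an imprinted Cip/Kip inhibitor best known from embryonic growth. Its probe set read 4.55 on input, 5.93 on IgG, 5.79 on Msi1 and 6.21 on hnRNP. All 4 values were above their floors, and the 3 precipitated samples were higher than input. Msi1 differed from IgG by −0.14 and from hnRNP by −0.42, and exceeded input by 1.24 (2.36-fold), or by 0.98 with median centring. IgG exceeded input by 1.38, more than Msi1 did. The receptor probe sets moved the same way, with a median of 0.57 for Msi1 minus input and 0.97 for IgG minus input, and 89.3% and 73.2% of them had smaller differences than Cdkn1c. The part of this shared background in the Cdkn1c value was not tested.

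The INK4 genes read less uniformly. Cdkn2b encodes p15, an INK4 inhibitor induced by TGF-beta, and read 8.37 on input, 5.27 on IgG, 6.69 on Msi1 and 5.50 on hnRNP. Its signal was highest in the starting RNA and second highest on Msi1, with the IgG value at its floor. Msi1 exceeded IgG by 1.42 (2.68-fold) and hnRNP by 1.19 (2.28-fold), and these differences were 1.38 to 1.56 and 1.11 to 1.31 under the 3 other scalings. With both values raised to the stricter floor they were 0.84 and 0.93, under 2-fold. Against input, Cdkn2b was lower on Msi1 by 3.20-fold (−1.68) and on IgG by 8.58-fold (−3.10). The former was no longer past 2-fold with quantile normalization (−0.27) or loess centring (−0.19), and the latter was −1.70 with quantile normalization and under 2-fold with loess centring (−0.77). Among the receptors, 99.8% had smaller Msi1 minus IgG differences than Cdkn2b, which ranked 1455th of 11156 probe sets against IgG.

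Cdkn2a encodes p16 and, from another reading frame, p19Arf, which stabilises p53. In the RefSeq gene table it lies next to Cdkn2b with no protein-coding gene between them. Its probe set read 4.03 on input, 5.74 on IgG, 5.50 on Msi1 and 6.28 on hnRNP, so the input value was below its floor and hnRNP was the highest. Msi1 differed from IgG by −0.25 and from hnRNP by −0.78, the latter past 2-fold lower with quantile normalization (−1.09). It was at least 2.66-fold higher on Msi1 than on input and at least 3.15-fold higher on IgG, with the input value raised to its floor. With both values raised to the stricter floor the difference of Msi1 from input was 0.61. The IgG and input values both lay below that floor, so their difference there, 0.97, is that of the floors alone. Of the receptors, 94.7% had smaller Msi1 minus input differences and 86.5% smaller IgG minus input differences than Cdkn2a.

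Cdkn2c and Cdkn2d, which encode the INK4 inhibitors p18 and p19, gave little signal. Cdkn2c read 4.73 on input, 3.70 on IgG, 3.99 on Msi1 and 3.64 on hnRNP, and only input was above its floor. Cdkn2d read 4.09 on input, 5.05 on IgG, 4.71 on Msi1 and 4.72 on hnRNP, below the floor on each array. No fold is given for Cdkn2d, and no bound for Cdkn2c, whose input value does not exceed the floor of any other array.

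**Figure D2:**
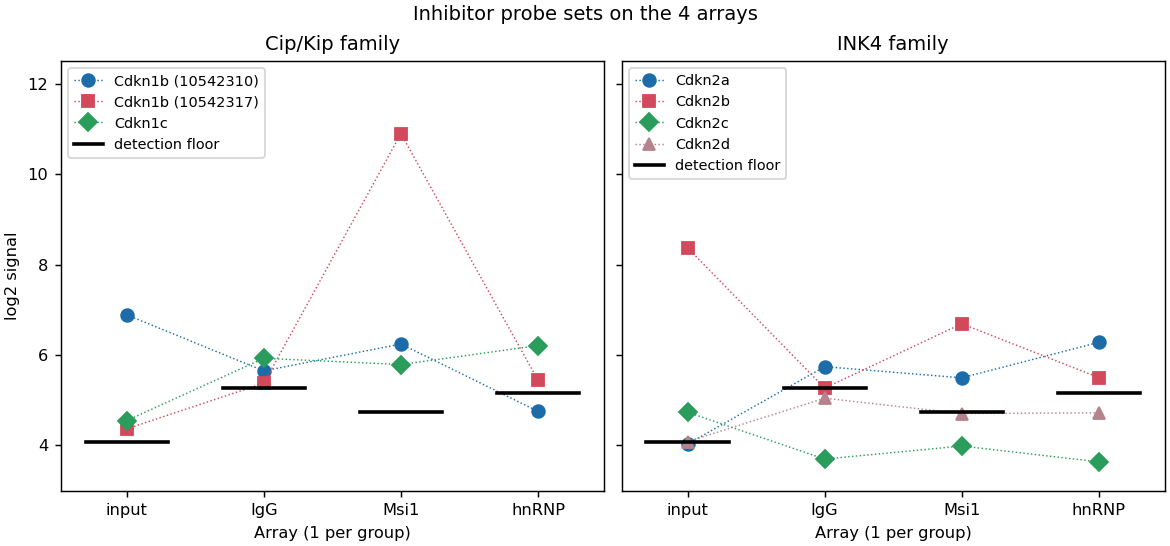
Log2 signal of the 7 inhibitor probe sets on the input, IgG, Msi1 and hnRNP arrays, with 1 point per array, Cip/Kip genes on the left and INK4 genes on the right; dotted lines join the points of a probe set and black bars are each array's detection floor. Cdkn1b probe set 10542317 stands at 10.90 on Msi1 and near the floor elsewhere, while Cdkn1b probe set 10542310 and Cdkn2b are highest on input.

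Counted over the family against IgG, 2 of the 5 probe sets above the floor were at least 2-fold higher on Msi1, beside 19.8% of all 11156, and 0 were lower, beside 7.05%. These 5 were above the floor on both arrays, and Cdkn2c and Cdkn2d on neither. The higher ones were Cdkn2b and 1 of the Cdkn1b probe sets, the latter known beforehand. The median of the 5 was 0.59 and that of all probe sets 0.09. Against hnRNP, 3 of 5 were higher (18.6% of all) and 0 lower (7.94%), with both Cdkn1b probe sets and Cdkn2b the higher ones. Against input, 3 of 6 were higher on Msi1 (11.9%) and 1 lower (38.7%), the higher ones being Cdkn1c, Cdkn2a and Cdkn1b probe set 10542317. These 3 comparisons share the Msi1 array, and so few probe sets give no rate for the family.

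The comparisons without the Msi1 antibody gave the family's background. Between hnRNP and IgG, 0 of 5 inhibitor probe sets were at least 2-fold higher (6.59% of all) and 0 lower (4.76%). The differences ran from −0.89 for Cdkn1b probe set 10542310 to 0.54 for Cdkn2a, and Cdkn1b probe set 10542317 differed by 0.06. Between IgG and input, 3 of 6 were higher (16.2%) and 3 lower (45.5%). Cdkn2a, Cdkn1c and Cdkn1b probe set 10542317 were the higher ones, the last by 1.01, beside the receptors' median of 0.97. That probe set was under 2-fold with median centring (0.62), quantile normalization (0.99) and loess centring (0.77), and Cdkn1c with median centring (0.99). Cdkn2b, Cdkn2c and Cdkn1b probe set 10542310 were the lower ones by the deposited values. For Cdkn2c (−1.03) the IgG value was below its floor and the input value did not exceed that floor, so that no fold is given. The Cdkn1b probe set differed by −1.24 as deposited, −0.07 with quantile normalization and 0.47 with loess centring, and Cdkn2b as given above.

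**Figure D3:**
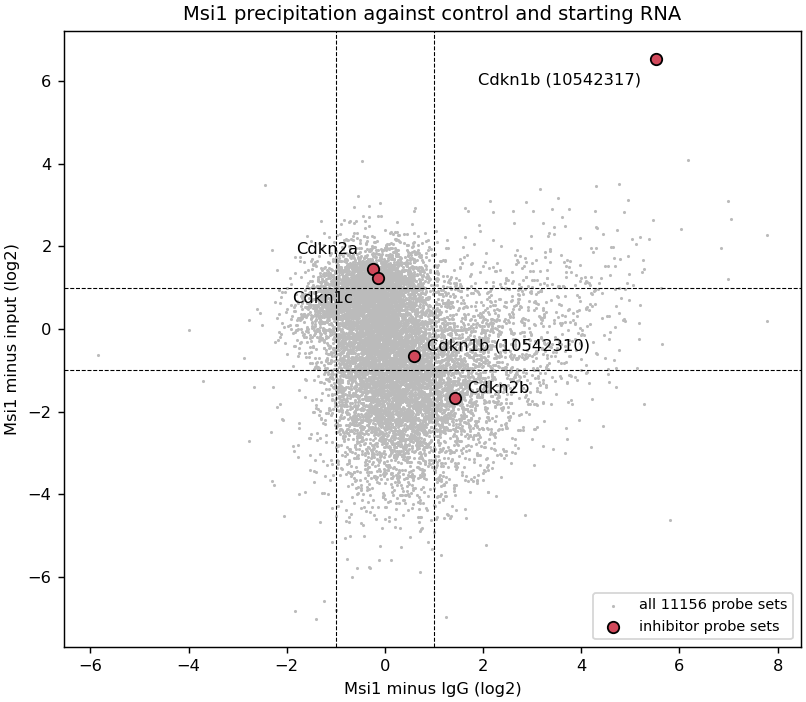
Msi1 minus IgG (x axis, log2) against Msi1 minus input (y axis, log2) for the 11156 probe sets above the floor on Msi1 or IgG (grey), with the 5 inhibitor probe sets among them in red; dashed lines mark 2-fold. Cdkn1b probe set 10542317 lies at 5.52 and 6.53, apart from the cloud, and the other 4 lie within it.

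Likeness was measured as the root mean square difference of 2 profiles over the 4 arrays, each centred on its own mean. The distance is not scaled for the range of a profile, so a wide range tends to give larger distances. Cdkn1b probe set 10542317 had a range of 6.53 log2 units over the 4 arrays. It was compared with the 14695 other probe sets with 1 gene symbol above the floor on at least 1 array. None of these came closer to it than 1.10. The 5 nearest were those of Prdm2 (1.10), a histone methyltransferase gene, Cflar (1.11), an inhibitor of death receptor signalling, 1810037I17Rik (1.20), the transporter gene Atp13a3 (1.20) and Pawr (1.28), which promotes apoptosis. On Msi1 they exceeded IgG by 3.16 to 4.76 and input by 2.91 to 3.52, less than Cdkn1b on both. Cdkn1b probe set 10542310, with a range of 2.13, had closer neighbours, Armc1 (0.07), Kansl1 (0.08), Nupr1 (0.08), Aamdc (0.09) and Snx9 (0.09).

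The other inhibitors above a floor also had close matches. Cdkn2b was nearest to the phosphatase subunit gene Ppp2r5d (0.04), Supt20 (0.06) and Bclaf1 (0.07), and Cdkn2c to Cpsf7, Rpp14 and Tesk2 (0.02 to 0.03). Cdkn2a was nearest to Fbxo17 (0.02), 4930597O21Rik (0.03) and the homeobox gene Hoxa7 (0.04), and Cdkn1c to Prcd, Kctd8 and the microRNA gene Mir181d (0.02 to 0.03). With 4 points a profile, such matches describe these arrays only. Of the nearest 2 genes on each side of Cdkn1b in the RefSeq gene table, only the orphan receptor gene Gpr19 was matched to a probe set. It read 4.80 on input, 4.26 on IgG, 4.61 on Msi1 and 5.03 on hnRNP, above the floor only on input.

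The other genes of the pathway were counted by their deposited values. Since many IgG values lay below the floor, each count is followed by the count with the dimmer value raised to its floor, by which 11.5% of all 11156 probe sets were at least 2-fold higher on Msi1 than on IgG and 4.02% lower.

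Cyclins and kinases that the inhibitors restrain were mostly close to the control in the Msi1 precipitation. Of 9 probe sets above the floor, 2 were at least 2-fold higher than IgG and 0 lower, also at the floor, with a median of −0.24. The D-type cyclin Ccnd2 read 10.13 on input, 5.48 on IgG, 8.09 on Msi1 and 5.58 on hnRNP, and was 6.09-fold higher on Msi1 than on IgG. The S phase cyclin Ccna2 was at least 2.58-fold higher. The INK4 targets Cdk4 and Cdk6 differed by −0.44 and −0.36. Against input, 8 of 10 were at least 2-fold lower on Msi1 and 0 higher, beside 38.7% and 11.9% of all probe sets, and 3 were lower with quantile normalization or loess centring.

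Pocket proteins and E2F factors, the substrates and effectors downstream, had 5 of 12 probe sets higher and 1 lower than IgG, with a median of 0.57. At the floor 1 was higher and 0 lower. That 1 was Rb1, the retinoblastoma gene, at least 2.11-fold higher. The E2F partner Tfdp1 exceeded IgG by at least 1.29-fold with 1 probe set, while its other probe set gave a difference of 0.09. E2f1 was at least 1.77-fold lower (−1.29), and E2f8 differed by −0.60. Against input, 10 of 15 were at least 2-fold lower on Msi1 and 0 higher, beside 38.7% and 11.9% of all probe sets. With quantile normalization 3 were lower and 0 higher, and with loess centring 3 and 2.

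The list for degradation of p27 and p21, which also holds genes that do not themselves degrade them, had 10 of 18 probe sets higher than IgG. It had 0 lower, with a median of 1.08. At the floor 5 were higher and 0 lower. Pcna, the replication clamp on which p21 is marked for destruction, was at least 46.6-fold and at least 14.5-fold higher on its 2 probe sets. The first of these read 10.61 on input, 3.03 on IgG, 10.81 on Msi1 and 1.70 on hnRNP. No coordinates were used, so whether both Pcna probe sets lie at the gene itself was not tested. Subunits of the ubiquitin ligase that takes p27 differed less, with Skp1 at least 2.50-fold higher, Rbx1 2.87-fold and at least 1.90-fold on its 2 probe sets, and Cul1 differing by 0.04. Skp2 and the p27-docking cofactor gene Cks1b were below the floor on IgG, and their Msi1 values did not exceed the IgG floor. The deubiquitinase Usp19 differed by −0.75 and Cdc20 by −0.21. Against input the median of this list was −1.01 over 22 probe sets, but 0.07 with quantile normalization and 0.17 with loess centring.

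Transcriptional regulators of the inhibitor genes had 3 of 18 probe sets higher and 0 lower, with a median of −0.05. This median was 0.09 with median centring, −0.32 with quantile normalization and −0.10 with loess centring. At the floor 2 were higher and 0 lower. These were Mdm2, the brake on p53, at least 2.29-fold higher, and Sp1, at least 2.32-fold. Tbx2 and Cbx7, repressors of the Cdkn2a locus, differed by −0.67 and −0.79. On Msi1 against input, 8 of 19 were lower (38.7% of all) and 1 higher (11.9%). These counts were 2 and 1 with quantile normalization, and 2 and 4 with loess centring.

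RNA-binding proteins reported to act on inhibitor mRNAs had 7 of 14 probe sets higher and 0 lower, with a median of 0.87. At the floor 6 were higher and 0 lower. Pum2, a Pumilio protein of the family that binds Cdkn1b mRNA, read 7.22 on input, 4.32 on IgG, 7.16 on Msi1 and 3.45 on hnRNP, at least 3.71-fold above IgG. Celf1 was at least 7.69-fold and 2.14-fold higher on its 2 probe sets. Elavl1 differed by −0.58. Ptbp1 fell short of IgG by at least 1.54-fold with 1 probe set, while its other probe set was under both floors. The Msi1 transcript read 12.16 on input, 8.14 on IgG, 8.09 on Msi1 and 6.07 on hnRNP. It differed from IgG by −0.05 and was 16.7-fold lower on Msi1 than on input, the cause of which was not tested. Msi2 differed from IgG by 0.64. Of 15 probe sets in this list set against input, 9 were lower on Msi1 (38.7% of all) and 1 higher (11.9%). These counts were 6 and 3 with quantile normalization, and 5 and 5 with loess centring.

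Kinases and partners of p27 had 3 of 13 probe sets higher and 0 lower, also at the floor, with a median of 0.37. Rhoa, a small GTPase that p27 restrains in the cytoplasm, was at least 16.7-fold and 2.22-fold higher on its 2 probe sets. Whether both lie at the Rhoa gene was not tested. They differed from input by −1.41 and −2.94 as deposited, the former by −0.11 with quantile normalization and 0.11 with loess centring. Stmn1, the microtubule-destabilising partner of p27, read 8.91 on input, 7.39 on IgG, 10.67 on Msi1 and 7.04 on hnRNP, 9.65-fold higher than IgG and above input by 1.75. The kinase gene Dyrk1b read 5.33 on IgG and was below the floor on Msi1. Its relative Dyrk1a gave a difference of −0.49 with 1 probe set and exceeded IgG by at least 1.29-fold with the other. Of 3 genes that carry a Cdkn symbol but encode no inhibitor of either family, Cdkn2aipnl was at least 1.62-fold higher (1.43), Cdkn2aip did not exceed the IgG floor and Cdkn3 was below the floor on both arrays. By the deposited values the shares against IgG stand beside 19.8% higher and 7.05% lower of all probe sets. Against input, 10 of 14 kinase and partner probe sets were lower on Msi1 (38.7% of all) and 1, Stmn1, higher (11.9%). Quantile normalization and loess centring each gave 6 lower and 2 higher. Gut epithelium markers, all above the floor in the starting RNA, had 6 of 11 higher than IgG and 0 lower, also at the floor. The part of starting abundance in the shares above was not tested.

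**Figure D4:**
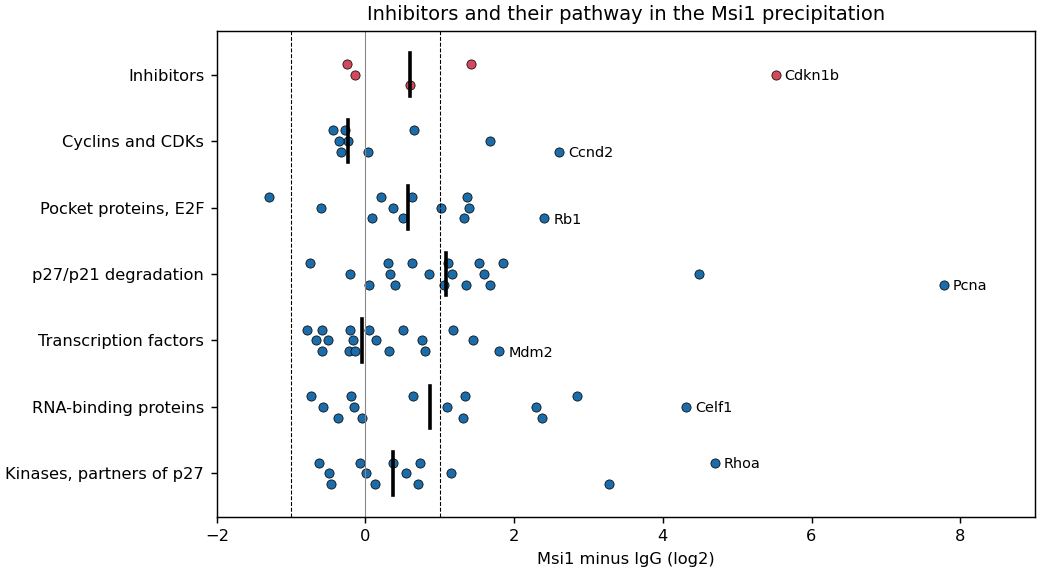
Msi1 minus IgG difference (x axis, log2) of each probe set above the floor on either array, for the inhibitors (red) and 6 lists of pathway genes (blue); black bars are medians, dashed lines mark 2-fold, vertical offsets only separate points, and the highest gene of each row is named. By the deposited values, Cdkn1b at 5.52 and Pcna at 7.78 are the furthest points. The medians run from −0.24 for cyclins and kinases to 1.08 for the degradation list. Many IgG values lay below the floor. With its IgG value raised to the floor, this probe set annotated to Pcna is at least 46.6-fold higher on Msi1, beside 45.8-fold for Cdkn1b.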

How the data were processed

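The deposited values are log2 signals, 1 per probe set and array, summarized by the authors. The submitters' processing notes name affy without a version. The sources used here do not state how background was corrected, how arrays were normalized or the log base, and base 2 was read from the range of the values. Gene symbols came from GEO's platform annotation: 21640 probe sets had 1 symbol, 1321 several and 11799 none here. No coordinates or sequences of the probe sets were used.

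Differences were taken between arrays for each probe set. A probe set counted when above the floor on at least 1 array of a pair, and was called at 2-fold. A fold with the dimmer reading under its floor is a lower bound. In all 5 comparisons were made and none was tested. Members and lists were chosen with earlier results of these data known. Genes named beside the members are the 2 highest and 2 lowest of each list against IgG, the nearest profiles and the neighbours of Cdkn1b, and others chosen after their values were seen. Other settings were quantile normalization, centring by the median or by loess (span 0.4), other floors and thresholds, and averaging both Cdkn1b probe sets. The 2-fold call, quantile normalization and loess centring were tested on simulated copies of the IgG array, with some probe sets raised well past 2-fold. Those copies lack the differences in scale between the real arrays. The floor bounds, probe set gaps, likeness and list counts were not tested in this way. Python 3.11.15, pandas 2.3.3, numpy 2.4.6 and statsmodels 0.14.6 were used.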

Additional observations from a re-analysis of the deposited data

Results flagged for a closer look

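The probe set shared by Cdkn1a, which encodes the Cip/Kip inhibitor p21, and 4930567H12Rik lay outside the comparisons because its signal cannot be assigned to either gene. It read 7.56 on input, 4.21 on IgG, 6.27 on Msi1 and 4.64 on hnRNP, so the Msi1 signal stood above the IgG control and above its own floor, while IgG and hnRNP were below theirs. Msi1 exceeded IgG by 2.07 (at least 2.01-fold) and hnRNP by 1.64 (at least 2.15-fold). Under the other scalings the difference from IgG was 2.16 to 2.49. Against input the value was −1.29, or −0.03 with quantile normalization and 0.10 with loess centring.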

How the results depend on the processing

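With 1 array a group there was no replicate to leave out. No paired analysis was possible because each group has 1 array. The spread used here was the robust standard deviation of the receptor differences. Of 145 alternatives to the inhibitor differences, 119 stayed within it, 23 moved beyond it and 3 turned a difference past 2-fold in sign. Part of the 119 could not come out otherwise. Median centring moves every probe set of a comparison by the same constant, which was smaller than that spread. Raising the dimmer value changes nothing where it was already above its floor. The causes of the moves and reversals were not tested. Base 2 and the authors' scaling stay unknown, and signal near the floor limits Cdkn2c, Cdkn2d and the control values of Cdkn1b.

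Averaging both Cdkn1b probe sets gave 3.06 against IgG, 2.94 against input and 3.47 against hnRNP, and −0.11 for IgG minus input, where probe set 10542317 alone gave 1.01. Probe set 10542310 differed from input by 0.39 with quantile normalization and 0.63 with loess centring, by 0.47 in IgG minus input with loess centring, and from hnRNP by 0.49 at the stricter floor. Probe set 10542317 exceeded input by 8.03 with loess centring. Cdkn2c gave 0.97 for IgG minus input when both values were raised to the stricter floor, which measures the floors alone.

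Of the inhibitor probe sets, those higher on Msi1 at 3-fold numbered 1 in each of its comparisons. Those lower on Msi1 than on input numbered 2 with median centring, 0 with quantile normalization and 3 at 1.5-fold, and those lower than hnRNP 1 with quantile normalization and 1 at 1.5-fold. For hnRNP minus IgG, 1 was lower with quantile normalization and 1 at 1.5-fold. For IgG minus input, 1 was higher with median centring, the stricter floor or 3-fold, and 1 was lower with loess centring or 3-fold.

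Over all probe sets with 1 symbol, 2213 were higher and 786 lower on Msi1 than on IgG. At 1.5-fold these counts were 3357 and 2172, at 3-fold 1258 and 141, and the lower count was 1692 with quantile normalization, 371 at the stricter floor and 1827 without a floor. On Msi1 against input, 1643 were higher and 5351 lower. The higher count was 985 with median centring, 812 at the stricter floor, 3509 without a floor, 2791 at 1.5-fold and 431 at 3-fold, and the lower count 2701 with quantile normalization, 3123 with loess centring and 3432 at 3-fold. Against hnRNP, 2137 were higher (1297 at 3-fold) and 912 lower, with 1804 lower after quantile normalization, 455 at the stricter floor, 1724 without a floor, 2567 at 1.5-fold and 120 at 3-fold. For hnRNP minus IgG, the 555 higher and 401 lower became 1106 and 926 with quantile normalization, 292 and 175 at the stricter floor, 915 and 875 without a floor, 1579 and 1223 at 1.5-fold and 87 and 63 at 3-fold. With the dimmer value raised to its floor, an alternative chosen after seeing the data, the higher and lower counts were 1285 and 448 against IgG, 1338 and 475 against hnRNP, and 151 and 110 for hnRNP minus IgG. For IgG minus input, the 2225 higher became 953 at the stricter floor, 6661 without a floor and 1180 at 3-fold, and the 6246 lower became 3894 with loess centring. Of all calls, 73.8% were higher on Msi1 than on IgG (61.0% with quantile normalization), 23.5% than on input (39.2% with quantile normalization and 40.8% with loess centring) and 70.1% than on hnRNP (58.7% with quantile normalization). For IgG minus input the share was 26.3%, or 38.1% and 43.3%. The median of all probe sets moved by 0.13, −0.25 and 0.12 with median centring in the 3 comparisons of Msi1 with IgG, input and hnRNP, by 0.45 with quantile normalization and 0.44 with loess centring against input, and by 0.11 with loess centring against hnRNP. For IgG minus input it moved by −0.39, 0.38 and 0.54 with median centring, quantile normalization and loess centring.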
